A study of Sus scrofa with 12 samples.

Results

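The comparison covers the H3K27ac loops of longissimus dorsi muscle from Large White (LW) and Meishan (MS) piglets, which rest on 4 of the 12 samples of the series. LW is a commercial lean breed and MS a Chinese local breed, and each breed had 2 libraries, taken by their labels. The piglets were male and 2 weeks old in both breeds, and the labels give no treatment. The other samples belong to GRID-seq, an assay of RNA bound to chromatin. The sources used here do not say whether the replicates of a breed came from separate animals, so the p-values measure the spread between these samples, which may be technical, and 1 tissue at 1 age stands for each breed.

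H3K27ac marks the histones of active promoters and enhancers, the DNA elements that switch genes on from nearby or from a distance. BL-HiChIP joins DNA ends that neighbour each other in the nucleus by means of a bridge linker and enriches the joined fragments with an antibody against the mark, so that a loop is a pair of genome segments, its anchors, that meet more often than their distance alone would give. In muscle, such loops connect enhancers to the genes of the contractile apparatus, of energy metabolism and of the myogenic transcription factors that build fibres.

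LW replicates 1 and 2 held 57028 and 43282 loops, and MS replicates 1 and 2 held 45061 and 33353. Every anchor was a 5-kb bin of the pig genome (build Sscrofa11.1). Loops were matched by both anchors, which gave 122406 different loops, and the strength of a loop was the −log10 of its false discovery rate (FDR). The number of loops reaching an anchor was 2.19 and 2.22 in LW against 2.10 and 2.11 in MS, higher in both LW libraries. The replicate 1 libraries were sequenced more deeply in both breeds and had more loops, so depth runs with the replicate number. An exact permutation of 2 against 2 libraries gives at best p = 0.33, and shares are therefore set beside the gap between replicates without a test. All 12 markers of skeletal muscle fibres had loops in every library, with a median loop score (defined below) of 50.6 and 109.7 in LW against 45.2 and 74.4 in MS. Of 8 hepatocyte markers, 1 (APOA1) had loops in any library, and ALB, the gene of serum albumin, had none.

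The first question was which regions of the genome carried relatively more loops in either breed. LW loops lay more often in gene-poor regions and MS loops in gene-dense ones, when each loop was assigned to the 1-Mb window of its midpoint and the windows were sorted by their number of protein-coding genes, a classification chosen after the values were seen. Windows without a coding gene held 1.56% and 1.71% of LW loops and 1.29% and 1.46% of MS loops. Windows with 1 or 2 coding genes held 8.31% and 8.61% in LW against 7.55% and 8.02% in MS, and windows with 3 to 5 held 20.7% and 21.2% against 19.9% and 20.4%. In these 3 classes both LW libraries lay above both MS libraries. Windows with over 20 coding genes held 17.1% and 16.1% of LW loops and 18.9% and 17.4% of MS loops, so that there both MS libraries were the higher ones.

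The difference in the densest windows (LW minus MS) was −1.57 percentage points, beside gaps of 0.950 points between the LW replicates and 1.48 points between the MS replicates. It had the same sign within the replicate 1 libraries (−1.83 points) and within the replicate 2 libraries (−1.30 points). By summed strength in place of loop number, the 3 gene-poor classes still separated the breeds, but the densest class did not, because LW replicate 1 (18.9%) lay above MS replicate 2. The classes with 6 to 10 and with 11 to 20 coding genes overlapped between the breeds.

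**Figure D1:**
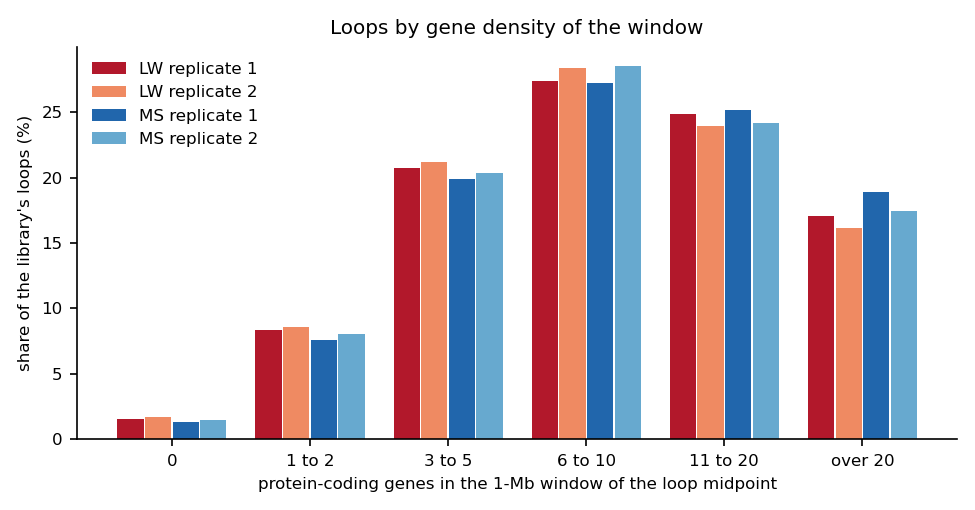
Share of each library's loops (%, bars from 0) by the number of protein-coding genes in the 1-Mb window of the loop midpoint, 1 bar per library with no error bar. LW bars stand above MS bars in the 3 gene-poor classes, and MS bars above LW bars in windows with over 20 coding genes (18.9% and 17.4% against 17.1% and 16.1%).

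The chromosomes differed in the same small range. Chromosome 8 held 3.80% and 3.96% of LW loops and 3.28% and 3.57% of MS loops, the widest gap among the 4 chromosomes on which both LW libraries lay above both MS libraries. The other 3 were chromosomes 9, 15 and X, and X held 2.12% and 2.13% in LW against 2.00% and 1.87% in MS. Both MS libraries were higher on chromosomes 5, 7 and 16, and chromosome 16 held 3.19% and 3.00% of LW loops against 3.59% and 3.33% of MS loops. By summed strength in place of loop number, chromosomes 3, 8 and 15 separated with LW above and chromosomes 7, 14 and 16 with MS above, so that 5, 9 and X no longer separated the breeds.

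On the other 13 of the 20 chromosomes the libraries of the breeds overlapped. Chromosome 17 was one of them, with 3.4% and 2.85% in LW against 4.03% and 3.07%, although LW was lower within each replicate number (log2 ratio of the shares −0.24 and −0.11). In all, 14 chromosomes kept the same side within both replicate numbers. Chromosome 12, the most gene-dense with 18.2 coding genes per Mb, was among those with a lower LW share, at 5.17% and 4.49% against 5.88% and 4.74% in MS, and chromosome 1 was among those with a higher one, at 9.42% and 10.6% against 8.29% and 10.4%. The libraries overlapped on both.

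**Figure D2:**
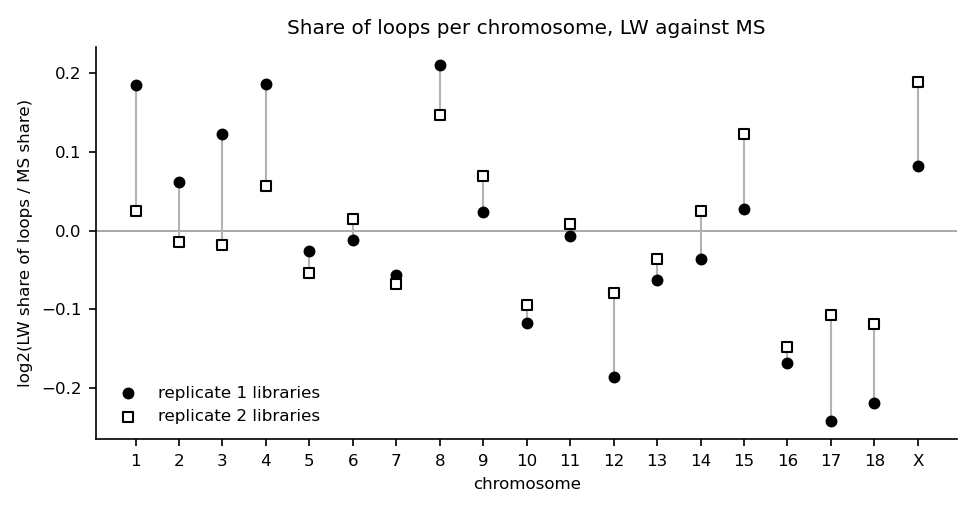
log2 ratio of the LW share of loops to the MS share on chromosomes 1 to 18 and X, as filled circles for the replicate 1 libraries and open squares for the replicate 2 libraries, joined by a line. Chromosomes 8, 15 and X lie above 0 and chromosomes 16, 17 and 18 below 0 with both replicate numbers, whereas chromosomes 2, 3, 6, 11 and 14 change side.

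Loop length separated the replicates more than the breeds. Loops between neighbouring bins (5 kb) made up 16.8% and 20.3% in LW against 15.2% and 21.9% in MS, so that LW minus MS was 1.62 points in replicate 1 and −1.66 points in replicate 2. Of 8 distance classes, only that of 20 to 45 kb did not overlap between the breeds, with 20.2% and 20.6% in LW against 20.7% and 20.8% in MS, a difference of −0.32 points beside a gap of 0.407 points between the LW replicates.

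Loops were also sorted by the genes at their anchors, with a gene end counted when it lay within 1 kb of the anchor. Loops joining 2 coding gene ends made up 10.3% and 13.3% in LW against 11.6% and 14.9% in MS. Loops with no gene end on either anchor made up 52.8% and 46.8% in LW against 49.6% and 44.9% in MS. The breeds overlapped in both classes, and within each replicate number MS had the larger share of gene-to-gene loops (LW minus MS −1.32 and −1.59 points) and LW the larger share of loops away from gene ends (3.16 and 1.96 points).

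Next, each 1-Mb window was compared by its loop score, the sum of −log10 FDR over its loops, quantile-normalized over the libraries and fitted with limma on the log2(score + 1) scale, on which the change of low scores is understated. Of 1976 windows, 97 were higher in LW (4.91%) and 106 in MS (5.36%) at a log2 fold change above 0.5 and an unadjusted p under 0.05, 203 or 10.3% in all. No window had a Benjamini-Hochberg adjusted p under 0.05 in limma, and the smallest was 0.149. When the libraries were scaled to an equal total in place of quantile normalization, 195 windows were higher in LW against 63 in MS, with 13 at an adjusted p under 0.05, while the median log2 fold change of all windows moved to 0.13. Windows past the threshold held few loops, a median of 4.75 per library for those higher in LW and 6.88 for those higher in MS, against 15.8 over all windows. Without MS replicate 1 and without MS replicate 2 the count higher in MS fell to 60 and 51.

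Over all windows, 4.91% were higher in LW and 5.36% in MS. Of 74 windows without a coding gene, 12.2% were higher in LW and 8.11% in MS, above both of those shares. Of 294 windows with 1 or 2 coding genes, 32 (10.9%) were higher in LW against 16 (5.44%) in MS. Of 209 with over 20 coding genes, 0 were called for LW and 5 (2.39%) for MS, below both shares. The classes between these did not all lean the same way as the loop shares. Of 498 windows with 3 to 5 coding genes, 27 (5.42%) were higher in LW and 41 (8.23%) in MS. Chromosome 17 had 10 windows higher in MS (16.9%) and 2 higher in LW (3.39%) of 59 tested. Chromosome 1 had 10 higher in MS (4.61%) and 18 higher in LW (8.29%) of 217. The difference between replicate 1 libraries (LW minus MS) and that between replicate 2 libraries, which share no library, had a Pearson r of 0.54 across the 1976 windows and the same side in 70.5%. These windows are not independent of each other, and the value is a description. The same correlation was 0.20 across 15431 genes and 0.29 across the 4632 loops found in all 4 libraries. The side was the same in 53.0% of the genes and 60.3% of these loops, so the direction of a gene repeated little.

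The 10 windows of smallest p were mostly sparse. On chromosome Y from 6000001 to 7000000, LW had 4 and 4 loops and MS had none. On chromosome 14 from 136000001 to 137000000, where DOCK1 (a guanine nucleotide exchange factor of cell migration and myoblast fusion) lies, LW had 4 and 3 loops and MS had none. The window on chromosome X from 91000001 to 92000000, with the neuronal gene DCX, had 7 and 5 loops in LW and none in MS. The windows higher in MS on chromosomes 13, 15 and 17 had at most 6 loops in any library.

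A pair of these windows held many loops in 1 breed. The window on chromosome 1 from 266000001 to 267000000, which holds MAPKAP1 (a subunit of the growth-regulating kinase complex mTORC2) and PBX3 (a homeodomain partner of HOX and myogenic factors), had 12 and 11 loops in LW against 1 and 2 in MS. Its score was 45.2 and 45.6 in LW against 2.36 and 4.50 in MS (log2 fold change 2.56 ± 0.30 SE, n = 2 per breed, limma adjusted p = 0.172). The window on chromosome 10 from 7000001 to 8000000, which holds GPATCH2, SPATA17 and the upper end of ESRRG, had 8 and 4 loops in LW against 30 and 27 in MS. Its score was 29.2 and 18.8 in LW against 121 and 151 in MS (log2 fold change −3.12 ± 0.37 SE, n = 2 per breed, limma adjusted p = 0.172). The breeds did not overlap in either window, which their choice by small p makes likely. ESRRG, a nuclear receptor of oxidative metabolism, had no loop within 1 kb of its ends in any library, and it is named because of its position, after the values were seen.

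Windows with more loops were named after the values were seen, from the 5 of smallest p in each direction with at least 10 loops in both libraries of the higher breed. This minimum was met by 42 LW and 44 MS windows. On chromosome 5 from 73000001 to 74000000 (PRICKLE1, a planar cell polarity gene) LW had 19 and 16 loops and MS 3 and 2. On chromosome 13 from 17000001 to 18000000 (OSBPL10, an oxysterol-binding protein) LW had 22 and 18 loops and MS 5 and 4. On chromosome 4 from 129000001 to 130000000 (COL24A1, a fibrillar collagen) LW had 45 and 27 loops and MS 15 and 11. The window on chromosome 3 from 119000001 to 120000000, with the potassium channel gene KCNS3, had 32 and 26 loops in LW against 9 and 11 in MS.

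Among those higher in MS, the window on chromosome 6 from 120000001 to 121000000 (FHOD3, a formin of the sarcomere) had 8 and 4 loops in LW against 16 and 11 in MS. The window on chromosome 13 from 64000001 to 65000000 (LMCD1, a LIM-domain cofactor of muscle) had 13 and 10 in LW against 24 and 15 in MS, and lost its call without MS replicate 1 (log2 fold change −1.22). The window on chromosome 17 from 34000001 to 35000000 (TCF15, a transcription factor of the somites) had 19 and 15 loops in LW against 25 and 15 in MS, an overlap in loop number, while its score was 123 and 86.5 against 250 and 198.

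**Figure D3:**
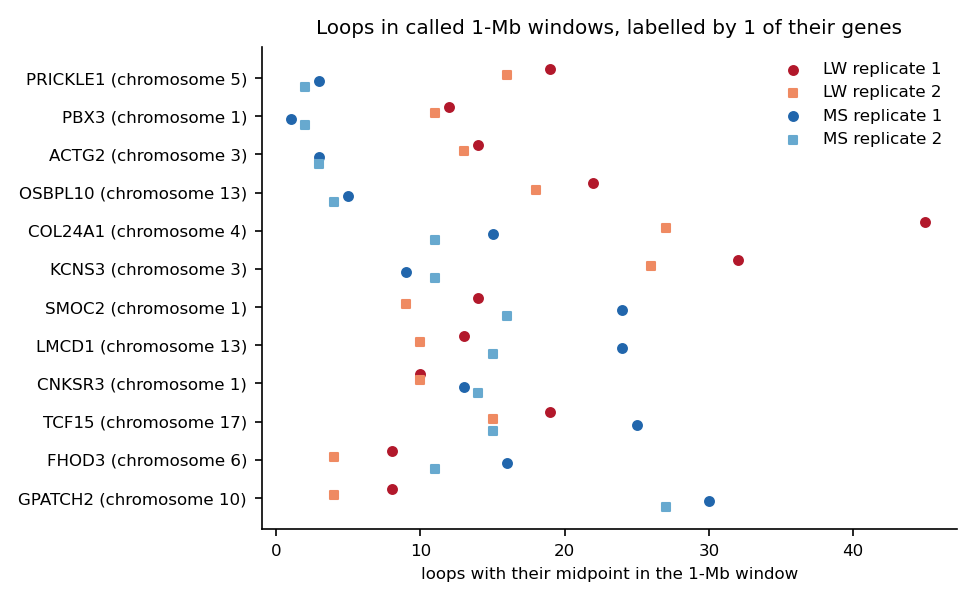
Number of loops with their midpoint in 12 called 1-Mb windows that hold at least 20 loops in all, labelled by 1 of their genes, with circles for replicate 1, squares for replicate 2, red for LW and blue for MS. The breeds do not overlap in loop number except in the TCF15 window, and the GPATCH2 window on chromosome 10 shows 8 and 4 loops in LW against 30 and 27 in MS.

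Single loops were gained or lost mainly through being called or not. Loops found in both LW libraries and in neither MS library numbered 5371, and those of both MS libraries and neither LW library 2903. Beside them, 5618 were found only in the replicate 1 libraries of both breeds and 5099 only in the replicate 2 libraries. The crossed pairs held fewer, 2295 (LW replicate 1 with MS replicate 2) and 2610 (LW replicate 2 with MS replicate 1). Of the 5371, 41.2% had an MS loop whose anchors lay within 1 bin of theirs, which left 3159, and of the 2903, 61.0% had such an LW loop, which left 1133. The LW-only loops lay in windows with over 20 coding genes in 13.7% of cases and the MS-only loops in 18.2%, and gene ends were absent from both anchors in 52.8% and 47.3%. Loops found only in the replicate 1 libraries and only in the replicate 2 libraries differed at least as widely. They lay in such windows in 22.6% and 17.8% of cases and had no gene end in 50.4% and 42.5%.

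The fit of loop strength over the 37791 loops found in at least 2 libraries called 3720 higher in LW (9.84%) and 3044 higher in MS (8.05%) at the same p and a log2 fold change above 1.5, 6764 or 17.9% in all and none with a limma adjusted p under 0.05. Of these, 3693 and 2895 were the loops just described, so that these calls restate the call pattern. MYOD1, the master regulator of the myogenic program, shows what a 1-bin shift does. A loop of 40 kb from its bin (chromosome 2, 41420001 to 41425000, to 41460001 to 41465000) had a strength of 45.0 and 90.7 in LW and was not called in MS. The loop from the next bin (41425001 to 41430000) to the same far anchor had a strength of 35.8 and 66.5 in MS and was not called in LW. Both breeds thus had a strong loop between MYOD1 and the same far bin. Loops at DUSP1, a phosphatase of MAP kinases, and at CEBPD, a transcription factor of fat cells and inflammation, were likewise called in 1 breed beside a neighbour in the other. By contrast, the loop of 30 kb at SLC43A2, an amino acid transporter (chromosome 12, 47805001 to 47810000, to 47835001 to 47840000), had a strength of 66.0 and 85.3 in LW, and MS had none within 1 bin.

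Loops present in all 4 libraries allow a comparison of strength without missing calls, although strength is a −log10 FDR and not a contact count. Of these 4632, the fit of all 37791 loops called 13 higher in LW against 36 in MS, and a fit of the 4632 alone called 45 against 50. The following were named after the values were seen. A loop of 80 kb at PHLPP1, a phosphatase that dephosphorylates AKT, had a strength of 16.1 and 19 in LW against 3.03 and 3.92 in MS. A loop of 40 kb at CACNA2D1, the α2δ subunit of the muscle calcium channel, had 25.4 and 31.7 in LW against 5.90 and 8.24 in MS. A loop of 15 kb at TCF15 had 4.17 and 6.52 in LW against 21 and 30.7 in MS, in the window on chromosome 17 described above. The breeds did not overlap at any of these loops, which their choice by small p makes likely.

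For genes, the loop score was the sum of −log10 FDR over all loops that had an anchor no more than 1 kb from either gene end, treated as the windows were. Of 15431 genes with a loop in any library, 436 were higher in LW (2.83%) and 386 in MS (2.5%), 822 or 5.33% in all, at a log2 fold change above 1.5 and an unadjusted p under 0.05. None had an adjusted p under 0.05 in limma with Benjamini-Hochberg adjustment, and the smallest was 0.804. With libraries scaled to an equal total the split was 718 to 301, and the median log2 fold change of all genes moved from 0.02 to 0.15. Most called genes had few or no loops in the other breed: 314 of the 436 had none in either MS library and 202 of the 386 none in either LW library. Loops in all 4 libraries were present at 6.65% and 13.2% of the genes called higher in LW and MS, against 49.4% of all genes tested. The normalization gave genes without a loop the value 0 in 3 libraries and 0.60 on the log2 scale in MS replicate 2, so a gene without a loop in LW replicate 2 and MS replicate 2 differed by that amount between them. Without LW replicate 1 the count higher in LW was 884, and without MS replicate 2 the counts were 718 and 876.

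Over all genes tested, 2.83% were higher in LW and 2.5% in MS. By gene class, 322 of 12247 protein-coding genes tested were higher in LW (2.63%) against 291 in MS (2.38%). Long noncoding RNA genes had 81 in each direction of 2465 (3.29%). Of 384 pseudogenes 23 were higher in LW (5.99%) against 7 in MS (1.82%). They had a median log2 fold change of 0.28 beside 0.02 over all genes. Of all pseudogenes, 13.0% and 9.73% had a loop in LW and 9.85% and 7.65% did in MS, an overlap. Of 122 microRNA genes 4 were higher in LW (3.28%) against 1 in MS (0.82%), and of 188 tRNA genes 5 in each direction (2.66%). The called genes had median lengths of 21.9 kb and 19.7 kb against 19.1 kb over all genes tested. The GRID-seq lists name the RNA of 1.15% of the genes higher in LW, of 1.30% of those higher in MS and of 3.65% of all genes tested.

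The 10 genes of smallest p higher in LW, of the 310 with a gene symbol whose libraries did not overlap, were led by RUNX1, a transcription factor of blood cell formation that is also induced in denervated muscle. RUNX1 scored 42.9 and 31.3 in LW against 0 and 0 in MS, from 8 and 3 loops (log2 fold change 4.84 ± 0.78 SE, n = 2 per breed, limma adjusted p = 0.804). MSGN1, a transcription factor of the presomitic mesoderm, scored 27.3 and 32.3 in LW and 0 in both MS libraries, and lies beside KCNS3. PAX7, the transcription factor that marks satellite cells, the stem cells of muscle, scored 18.5 and 14.6 in LW from 2 and 1 loops and 0 in both MS libraries (log2 fold change 3.67 ± 0.77 SE).

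MAPKAP1 scored 18.5 and 19.6 in LW and 0 in both MS libraries, and DEPTOR, an inhibitor of mTOR, scored 28.6 and 11.8 in LW and 0 in both MS libraries. MXD4, a dimerization partner of MAX that opposes MYC, scored 20.8 and 24.2 in LW and 0 in both MS libraries. DPT, the matrix protein dermatopontin, scored 22.8 and 44.6 in LW against 2.17 and 0 in MS. The others were RGR (an opsin of the retina), GABRR3 (a GABA receptor subunit) and NNAT (an imprinted gene of the nervous system and endocrine tissues), with LW scores from 14.8 to 29.7 and no loop in MS.

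With 5 kb in place of 1 kb around gene ends the log2 fold change of DEPTOR turned to −0.52, and those of PAX7, MXD4 and RUNX1 fell to 0.44, 0.56 and 1.20, below the threshold. When 1 library was left out, the log2 fold change ranged from 4.38 to 5.17 for RUNX1 and from 3.18 to 4.05 for PAX7. All 10 were chosen by small p and no overlap, so such ranges are no separate support.

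The 10 genes of smallest p higher in MS, of 259 with a symbol, were led by CCDC125, a coiled-coil protein, which scored 0 and 0 in LW against 28.1 and 20.7 in MS from 7 and 3 loops (log2 fold change −4.81 ± 0.76 SE, limma adjusted p = 0.804). ROBO3, a receptor of axon guidance, scored 2.67 and 0 in LW against 30.7 and 17.8 in MS. OAS2, an interferon-induced enzyme that senses viral RNA, scored 0 and 0 in LW against 11.7 and 14.6 in MS. NOTCH4, a Notch receptor of endothelial cells, scored 0 and 0 in LW against 11.3 and 16.9 in MS from 3 loops in each. YES1, a kinase of the SRC family, scored 0 and 0 against 10.6 and 12.4. IYD (an enzyme of thyroid iodide recycling), PRND (a relative of the prion protein), LMTK2 (a membrane kinase), LONRF1 and TMEM230 had MS scores from 9.24 to 16.2 and no loop in LW. When 1 library was left out, the log2 fold change of CCDC125 ranged from −5.04 to −4.66, which after the same choice is no separate support. With 5 kb around gene ends NOTCH4, ROBO3 and TMEM230 lost their calls (log2 fold changes −1.81, −1.83 and −1.34).

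**Figure D4:**
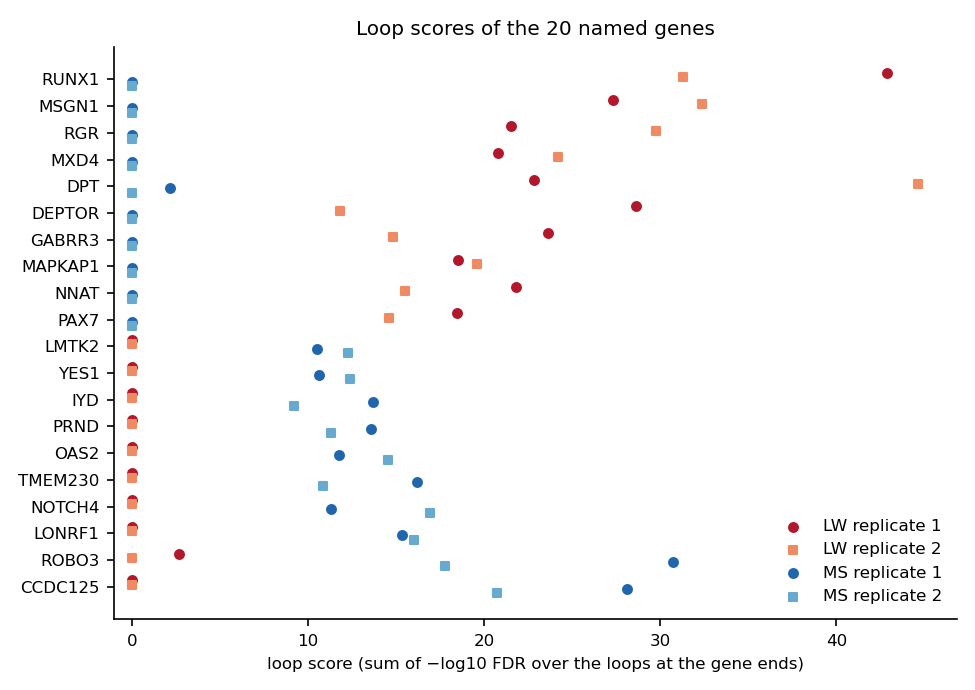
Loop score of the 20 genes of smallest p, the sum of −log10 FDR over the loops at their ends, with circles for replicate 1, squares for replicate 2, red for LW and blue for MS. The 2 libraries of the lower breed lie at 0 for every gene except DPT (2.17 in MS replicate 1) and ROBO3 (2.67 in LW replicate 1), and the LW scores of the 10 genes higher in LW lie between 11.8 and 44.6.

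Gene lists for muscle were described by their counts and medians, beside a median log2 fold change of 0.02 over all genes, with 51.3% of them above 0. At the rule for a call, 2.83% of all genes were higher in LW and 2.5% in MS. The few calls per list given below stand beside those shares and are not read as a result about a list. Among the members given below, NDUFS1, the antigen processing genes, IRF1, IRF2, IL6R, DCN, COL4A1, COL4A2, ELN and CHRNG were picked after their values were seen. None of 16 myosin and thick filament genes, 37 thin filament and Z-disc genes or 26 calcium handling and excitation genes was called, and their median log2 fold changes were −0.26, 0.02 and −0.13. TNNT3, the fast troponin T, scored 103 and 380 in LW against 83.7 and 280 in MS, and TNNI2, the fast troponin I, 98.7 and 306 against 90.1 and 242. MYH2, a fast myosin heavy chain, scored 83.4 and 179 in LW against 154 and 163 in MS. CASQ1, the calcium-binding protein of the fast-fibre sarcoplasmic reticulum, scored 79.5 and 267 against 56.0 and 235. The libraries of the breeds overlapped in all of these, and TNNT3, TNNI2 and CASQ1 were over 2 times higher in replicate 2 than in replicate 1 of both breeds.

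Genes of energy metabolism had calls in both directions, beside 5.33% of all genes tested. Of 31 glycolysis and glycogen genes, GPI (phosphoglucose isomerase) and LDHA (lactate dehydrogenase of fast muscle) were called higher in LW and PGK1 (phosphoglycerate kinase) in MS. LDHA scored 21.4 and 19.7 in LW against 2.56 and 4.49 in MS, and lost its call without LW replicate 1, without LW replicate 2 and without MS replicate 1 (log2 fold changes 2.16, 1.91 and 1.39). GPI scored 28.4 and 39.6 in LW against 0 and 6.18 in MS, and PGK1, on chromosome X, scored 2.32 and 4.37 in LW against 13.6 and 19.4 in MS. GPI lost its call without LW replicate 1 or MS replicate 1 (3.64 and 1.76), and PGK1 without LW replicate 1, MS replicate 1 or MS replicate 2 (−1.84, −2.91 and −2.30). With 5 kb around gene ends all 3 lost their calls, at 0.86 for GPI, 0.94 for LDHA and −0.92 for PGK1. The median of the list was 0.12. Before normalization both LW libraries lay above both MS libraries for 13 of the 31 (41.9%), against 21.1% of all genes tested. The reverse held for 3 (9.68%), against 7.02%. The muscle glucose transporter gene SLC2A4 scored 87.2 and 159 in LW against 92.1 and 149 in MS, an overlap.

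Of 25 nuclear oxidative phosphorylation genes, 17 had a log2 fold change above 0, and the median was 0.49, with a range of 0.23 to 0.79 when 1 library was left out. The list named 47 genes, of which 29 were in the gene table. Those were mostly genes of complex I, with no ATP synthase gene among them. Both called genes were higher in LW. NDUFAB1, the mitochondrial acyl carrier protein, scored 7.94 and 5.93 in LW and 0 in both MS libraries, and SDHC, a membrane subunit of succinate dehydrogenase, scored 35.9 and 28.4 in LW against 6.19 and 2.22 in MS. NDUFAB1 lost its call without LW replicate 2 or MS replicate 1 (2.34 and 1.99), and SDHC without LW replicate 1 or 2 (2.40 and 2.48). Before normalization both LW libraries lay above both MS libraries for 8 of the 25 (32.0%), against 21.1% of all genes tested, and the reverse held for none, against 7.02%. NDUFS1, a complex I subunit that was not called, scored 16.7 and 27.9 in LW against 2.13 and 4.99 in MS.

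Of 32 lipid storage and fatty acid oxidation genes, ACACB (acetyl-CoA carboxylase 2, which controls fatty acid oxidation) scored 13.3 and 8.30 in LW against 0 in MS, and ADIPOR1, a receptor of adiponectin, 7.46 and 8.91 in LW against 0 in MS. Both were called higher in LW, and both turned with 5 kb around gene ends (−0.69 and −0.16). ADIPOR1 also lost its call without LW replicate 2 or MS replicate 1 (2.26 and 2.19). Both LW libraries lay above both MS libraries before normalization for 10 of the 32 (31.25%), against 21.1% of all genes tested. The reverse held for 1 (3.125%), against 7.02%. The median of the list was −0.13, and it was above 0 without LW replicate 1, LW replicate 2 or MS replicate 1 (0.19, 0.18 and 0.11). Of 24 AMPK and mitochondrial regulators, TFB2M, a mitochondrial transcription factor, was called higher in MS (0 and 0 in LW, 3.39 and 10.3 in MS), though not without LW replicate 1 (−2.82) or with 5 kb around gene ends (−0.32), and the median was −0.18.

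The genes of innate immunity and antigen presentation leaned to MS. This list names TAB1 and IRF3, which the study had linked to MS from loops of these same samples, so those members are no separate support. Of 27 members tested, 26 had a log2 fold change below 0, and the median was −0.81, with a range of −1.0 to −0.67 when 1 library was left out and −0.72 with libraries scaled to an equal total. None passed the threshold of a call. Before normalization both MS libraries lay above both LW libraries for 8 of the 27 (29.6%), against 7.02% of all genes tested, and the reverse held for none, against 21.1%. The genes for antigen processing TAP1, TAP2, PSMB8 and PSMB9 lie side by side on chromosome 7 and share loops. TAP1, a subunit of the peptide transporter, scored 16.5 and 10.7 in LW against 27.5 and 32.8 in MS, and PSMB9, a subunit of the immunoproteasome, 16.5 and 7.88 against 21.9 and 32.8. IRF1, a transcription factor of the interferon response, scored 0 and 5.47 in LW against 10.6 and 11.6 in MS, and IRF2 scored 18.6 and 14.8 against 45.5 and 23.0. The 1 member above 0 was IL6R, the interleukin 6 receptor, with 3.86 and 15.1 in LW against 0 and 21.2 in MS, and NFKBIA, an inhibitor of NF-κB, was near 0 at 103 and 173 against 89.3 and 154. OAS2 is no member of the list.

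The matrix genes leaned the other way. Of 31 collagen and matrix genes, 22 had a log2 fold change above 0, and the median was 0.61, with a range of 0.21 to 0.57 when 1 library was left out. Before normalization both LW libraries were the higher ones for 16 of the 31 (51.6%), against 21.1% of all genes. Both MS libraries were the higher ones for 2 (6.45%), close to the 7.02% of all genes. LAMC1, a laminin chain of the basement membrane, scored 70.3 and 103 in LW against 40.5 and 28.6 in MS. DCN, the proteoglycan decorin, scored 24.0 and 20.3 in LW against 2.58 and 9.76 in MS. COL1A2, a chain of type I collagen, scored 78.2 and 92.7 in LW against 36.5 and 54.4 in MS. None of these was called. The 1 call in the list went to MS: TIMP3, an inhibitor of matrix metalloproteinases, scored 6.34 and 22.1 in LW against 49.0 and 67.9 in MS, and lost its call without MS replicate 1 and without MS replicate 2 (−2.69 and −2.37) and with 5 kb around gene ends (−0.99). The type IV collagen genes COL4A1 and COL4A2, which share their loops, and ELN, the elastin gene, were below 0 as well (−1.15, −1.15 and −1.51).

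**Figure D5:**
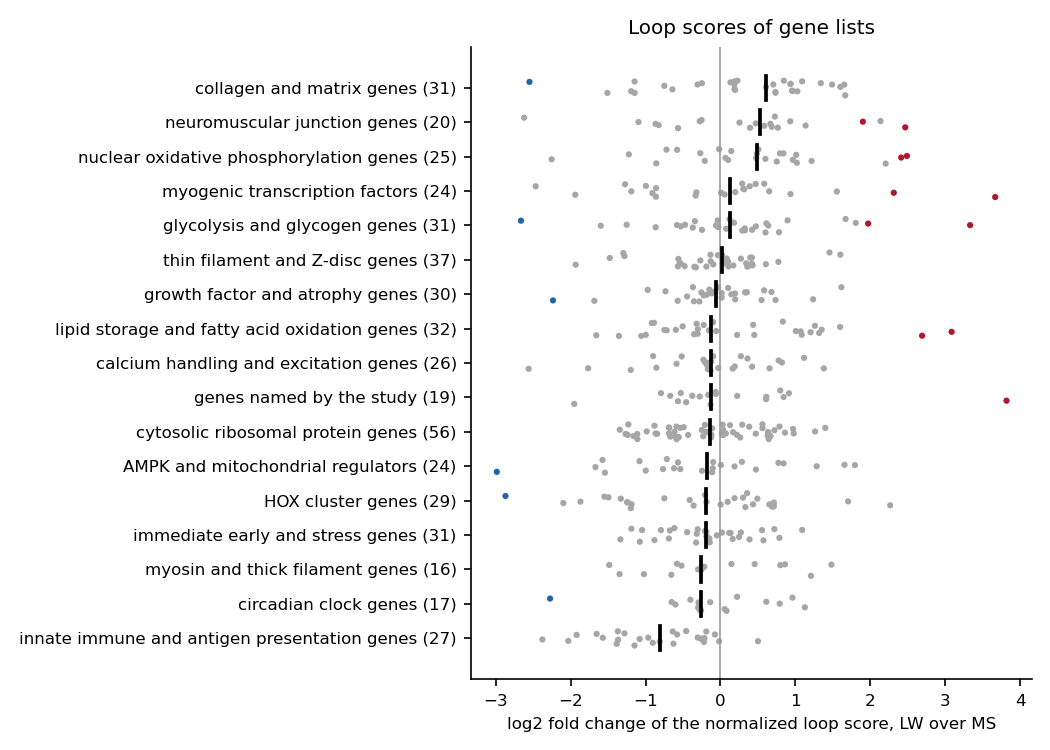
log2 fold change (LW over MS) of the normalized loop score of each member of the 17 gene lists, with the number of members tested in brackets, 1 point per gene, the median as a black bar, and called genes in red (higher in LW) or blue (higher in MS). The innate immune list has its median at −0.81 with 26 of 27 points below 0, and the collagen and matrix list has its median at 0.61 with TIMP3 as its 1 called member.

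Of 20 neuromuscular junction genes, the acetylcholine receptor subunit gene CHRND and the entry named CHRNE were called higher in LW, beside 2.83% of all genes. The RefSeq table classes that CHRNE entry as a long noncoding RNA. CHRND scored 9.42 and 6.51 in LW against 2.26 and 0 in MS, and CHRNE scored 11.9 and 9.50 against 2.18 and 0. CHRND lost its call without LW replicate 1, LW replicate 2 or MS replicate 2 (log2 fold changes 2.16, 1.84 and 1.26) and CHRNE without LW replicate 1 or 2 (2.90 and 2.22). CHRNG, the fetal subunit beside CHRND, scored 26.0 and 13.8 in LW against 8.34 and 4.43 in MS, and CHRNB1 went the other way, with 53.5 and 34.8 in LW against 70.5 and 67.3 in MS. The median of the list was 0.53, with a range of 0.26 (without MS replicate 1) to 0.56 when 1 library was left out. Before normalization both LW libraries were the higher ones for 7 of the 20 (35%), against 21.1% of all genes tested. Both MS libraries were the higher ones for 2 (10%), against 7.02%.

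Of 24 myogenic transcription factor genes, PAX7 and SIX2, a homeobox gene of early development, were called higher in LW, and the median was 0.13. SIX2 scored 5.21 and 7.18 in LW and 0 in both MS libraries, and lost its call without LW replicate 2, MS replicate 1 or MS replicate 2 (1.79, 1.82 and 2.74). Of 30 growth factor and atrophy genes, BMP4, a ligand of the BMP pathway, was called higher in MS with 3.37 and 2.49 against 0 in both LW libraries, though not without LW replicate 2 (−2.28), and the median was −0.06. IRS1, which passes the insulin signal on, scored 183 and 618 in LW against 130 and 318 in MS.

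Of 17 circadian clock genes, PER3 was called higher in MS (0 and 0 in LW, 2.33 and 4.77 in MS), though not without LW replicate 1 or 2 (−2.06 and −2.27) or with 5 kb around gene ends (−1.72), and the median was −0.26. Of 29 HOX cluster genes, HOXB7 was called higher in MS (2.11 and 0 in LW, 10.4 and 3.98 in MS), though not without LW replicate 1, LW replicate 2 or MS replicate 1 (−3.02, −2.42 and −2.42), with a median of −0.19. Neither 56 cytosolic ribosomal protein genes nor 31 immediate early and stress genes had a call, with medians of −0.14 and −0.19. Of 19 genes the study named, chosen in part on these samples, KCNS3 was called, higher in LW, though not without LW replicate 1 or MS replicate 1 (4.58 and 2.05), and the median was −0.13. POPDC2, a membrane protein of muscle, scored 67.5 and 89.6 in LW against 24.8 and 53.7 in MS (log2 fold change 0.91). DYSF, a protein of membrane repair, scored 16.9 and 14.8 in LW against 14.6 and 31.3 in MS (−0.67), and LMOD2, which elongates thin filaments, 28.5 and 83.6 against 40.4 and 87.3 (−0.57), both with an overlap. None of these 3 was called.

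The medians of 13 of the 17 gene lists changed sign when 1 library was left out, those of the 3 contractile lists among them, and their signs therefore rest on single libraries. The contractile medians ranged from −0.42 to 0.36 (myosin), −0.38 to 0.46 (thin filament) and −0.45 to 0.43 (calcium), with the values above 0 without LW replicate 1 for myosin, and without LW replicate 1 or MS replicate 2 for the other lists. The glycolysis median was below 0 without LW replicate 2 (−0.17) or MS replicate 1 (−0.13). The 4 lists that kept their sign were the oxidative phosphorylation, matrix, neuromuscular junction and innate immune lists.

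Markers of other cell types moved with some of these lists. Of 8 fibroblast markers tested, 7 had a log2 fold change above 0, with a median of 0.78 (0.49 to 1.15 when 1 library was left out) and summed scores of 128 and 191 in LW against 111 and 125 in MS, and TCF21 had no loop. Such sums are not normalized. The summed strength of all loops was also larger in LW, at 338322 and 325272 against 247030 and 257500 in MS. COL1A1, COL3A1, DCN and LUM are also in the matrix list. Of 8 endothelial markers, 7 were below 0, with a median of −1.16 (−1.85 to −0.69, the latter without LW replicate 1) and summed scores of 67 and 104 in LW against 118 and 202 in MS. PECAM1 scored 19.2 and 41.4 in LW against 43.4 and 65.9 in MS, and VWF had loops only in MS replicate 2. Of 4 macrophage and leukocyte markers tested, 3 were below 0, and their median was 0.13 without MS replicate 2 and below 0 without any other library, with CD68 at 30.2 and 26.4 in LW against 44.9 and 45.4 in MS, while PTPRC, ITGAM, CD163 and CD3E had no loop in any library. Whether a different share of these cells had a part in the matrix, immune or NOTCH4 values was not tested, and in whole muscle more cells of a type and more looping per cell cannot be told apart.

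The remaining marker lists were small. Of 4 satellite cell markers tested the median was 0.66 (0.29 to 1.77 when 1 library was left out), with PAX7 called. The medians were −0.23 for 4 adipocyte markers, 0.37 for 6 smooth muscle and pericyte markers, −1.24 for 2 Schwann cell markers, −0.31 for 2 neuron markers and −0.01 for 3 erythroid markers, of which SLC4A1, the red cell anion exchanger, was called higher in MS with 3.98 and 2.19 against 0 in both LW libraries, though not without LW replicate 2 (−2.28) or with 5 kb around gene ends (−1.42). The medians of these 5 lists changed sign when 1 library was left out, with ranges of −0.79 to 0.41 for adipocyte, −0.38 to 1.06 for smooth muscle, −2.50 to 0.04 for Schwann cell, −0.82 to 0.07 for neuron and −0.95 to 0.23 for erythroid markers. ADIPOQ, PLIN1 and LEP had no loop in any library.

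Some genes gathered many loops of 1 breed without a call. MAF, a bZIP transcription factor of differentiation, had 8 loops found in both LW libraries and neither MS library and 0 of the reverse kind. Its loops numbered 23 and 35 in LW against 17 and 16 in MS, and its score was 189 and 454 against 79.1 and 160 (log2 fold change 1.20). NRP1, a coreceptor of VEGF and semaphorins in vessels and axons, had 7 loops of both MS libraries and neither LW library and 0 of the reverse kind. Its loops numbered 14 and 16 in LW against 38 and 32 in MS, and its score was 72.3 and 95.4 against 228 and 230 (log2 fold change −1.71). The breeds did not overlap at either gene. At FOXO3, a transcription factor of muscle atrophy, 5 loops were of the LW kind and 4 of the MS kind, and at SMAD3, which carries the TGF-β signal, 4 of each, with overlapping scores. These genes were named after their values were seen.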

How the data were processed

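BL-HiChIP libraries were made from frozen longissimus dorsi of 2-week-old male piglets, with 2 libraries per breed. According to the study's methods, reads were handled with ChIA-PET2, BWA-MEM and Pairtools, and FitHiChIP called loops at 5-kb bins in peak-to-all mode, from 5 kb to 2 Mb, with coverage bias correction. The authors deposited 1 loop list per library with an FDR (an adjusted p-value) per loop and no read counts, so depth per loop is unknown. The lists carry no header, and their column of p-like values was read as that FDR. The GRID-seq lists the authors deposited hold RNA read counts and were used only for which genes they name.

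Loop strength was −log10 FDR, and 2 loops with an FDR of 0 were given the smallest FDR above 0 of their library. The RefSeq gene table (Sscrofa11.1, 28210 genes) carries no strand, so both gene ends were used. Scores per gene, window and loop were quantile-normalized, taken as log2(score + 1) and fitted with limma 3.58.1 in R 4.3.3 (lmFit, eBayes), on the 4 libraries alone. A call needed an absolute log2 fold change above 1.5 (windows 0.5) and an unadjusted p under 0.05, and adjusted values are Benjamini-Hochberg. This test replaces the count model used by the study, because a score is not a count. Python 3.11.15, numpy 2.4.6, pandas 2.3.3 and matplotlib 3.10.9 were used elsewhere, and the fit was tested on simulated data. There, 200 features were changed by a log2 of 3 or 6, and the share of unchanged features among calls depends on that number. Most gene and loop calls under this unadjusted rule were unchanged features. No changed gene or loop had an adjusted p under 0.05, so a single call is a description. For windows, 40.7% and 41.2% of calls were unchanged, and 90.5% and 92.5% of changed windows had an adjusted p under 0.05. Named genes were taken from the 10 of smallest p in each direction, with a symbol, no overlap between the libraries of the breeds and the same side within both replicate numbers, every called member of a list, its 2 members of highest mean score, and the genes the study named, of which a selection is given; others are marked in the text. Windows and loops named were the 5 of smallest p in each direction. Members and lists were chosen with earlier results of these data known. Alternatives covered normalization, pseudocount, filters, FDR, gene-end distance, bin tolerance, window size, the replicate block and each library left out.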

Additional observations from a re-analysis of the deposited data

How the results depend on the processing

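Counts are given as higher in LW and higher in MS. Genes numbered 718 and 301 with an equal total per library, 862 and 259 without normalization, 431 and 957 with a pseudocount of 0.1, and 78 and 68 (2 at adjusted p under 0.05) with the number of loops as score. Without a filter on low values 64 genes had a limma adjusted p under 0.05. Loops numbered 45 and 50 when only those of all 4 libraries were fitted, 2376 in LW when those of 1 library were added, and at an FDR limit of 0.001 1999 in MS. With a pseudocount of 0.1, 6225 loops had an adjusted p under 0.05. Windows numbered 195 and 63 (13 at adjusted p under 0.05) with an equal total, and 179 and 175 at 500 kb. Loops of both libraries of 1 breed numbered 3571 and 1899 at an FDR of at most 0.001, and 3159 and 1133 with 1 bin of tolerance. The chromosomes with a higher share numbered 8 and 12 with replicate 1 only, and 10 and 10 with replicate 2 only. Leaving out 1 library gave 300 to 884 and 448 to 876 genes, 3236 to 4540 and 2833 to 3381 loops, and 73 to 86 and 51 to 94 windows, with 0 at adjusted p under 0.05. With 5 kb around gene ends ACACB (−0.69), ADIPOR1 (−0.16) and DEPTOR (−0.52) reversed. Of 37 called and named genes, 20 lost their call with the number of loops as score, 13 with 5 kb around gene ends, 8 at an FDR of at most 0.001, 7 without a filter and 6 with a pseudocount of 0.1. The causes were not tested. Scores restricted to the transcription start were not run, since the gene table has no strand.

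With the replicate number as a block, 696 and 591 genes and 204 and 221 windows were called, and 3811 and 3140 loops. Deviations of same-numbered libraries correlated at 0.354 over genes and 0.507 over windows. Same-numbered libraries of the breeds also shared more loops than crossed ones. The main fit has no block, so this shared part stays in its spread. The labels name no shared source, and with 2 pairs what the replicate number stands for was not tested.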
